A study of Mus musculus with 43 samples.

Results

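The 12 libraries of the male nuclear RNA table, 6 from mice in environmental enrichment (EE) and 6 from mice in standard housing (SH), were compared across all genes. They were chosen as every library of that table, out of 43 libraries in the series, and the group of each followed its label. All were wildtype male Swiss Webster mice, weaned on postnatal day 25 and 2 months old. EE mice had a larger cage that held a wheel for running, a tube, added nesting material and toys that were exchanged, and SH mice had bedding and a nestlet. Nuclei of the frontal cortex were fixed in paraformaldehyde and sorted for NeuN, a nuclear protein of neurons, and their RNA was counted over introns and exons. Of 53379 gene IDs in the table, 14597 had enough counts to be tested. The labels do not say that the libraries came from separate animals, so a p measures the spread between these samples.

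Enrichment gives rodents more movement, exploration and social and sensory input than a standard cage, and it is known for its effects on the growth and plasticity of cortical neurons. RNA taken from nuclei is rich in transcripts that are still being made or spliced, so intron reads carry much of the signal of long genes. Neurons of the adult cortex keep using many genes first known from development, among them adhesion proteins and axon guidance receptors, as well as a circadian clock and their own lipid synthesis.

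Total counts were 10.4 to 13.6 M (mega) in EE and 11.7 to 14.6 M in SH. Genes with a count numbered 23488 to 26985 in EE (median 25274.5) and 25745 to 27335 in SH (median 26854.5), with a two-sided exact permutation p of 0.0368 that was 0.344 after Benjamini-Hochberg adjustment over 12 library measures. EE replicates 1 and 4 stood farthest from the rest on the first principal component of the 2000 most variable genes, which held 29.3% of their variance. Rbfox3, the gene of the sorted protein, had 17987 to 26260 counts in every library. Markers of glia were detected too, with 10 of 10 tested oligodendrocyte markers and 9 of 10 astrocyte markers at a positive log2 fold change, 2 of each list at an unadjusted p under 0.05. Summed levels in CPM (counts per M) were 97.5 to 255 in EE and 116 to 155 in SH for oligodendrocytes, 685 to 835 and 657 to 762 for astrocytes. The oligodendrocyte medians were alike, at 145.5 and 144.8 CPM. Of tested markers of oligodendrocyte precursors 2 of 4 were positive, of microglia 2 of 5 and of vascular cells 2 of 4, and summed microglial levels were 1293 to 1873 CPM in EE and 1426 to 2113 CPM in SH. Neither the astrocyte nor the oligodendrocyte list had a marker at 0 in all libraries. In bulk samples, fewer cells of a type and less RNA per cell cannot be told apart.

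Across the transcriptome, 5 genes rose and 1 fell in EE at a Benjamini-Hochberg adjusted p under 0.05 in edgeR's quasi-likelihood test, which is 0.0411% of the genes tested. The 5 that rose were Pcdh11x, an adhesion protein of the protocadherin family, Trps1, a zinc finger transcriptional repressor, Robo3, an axon guidance receptor of the Robo family, Arntl, which encodes the clock factor BMAL1, and Vmn2r85, annotated as a vomeronasal receptor. The 1 that fell was Lypd1, a membrane-anchored protein of the Ly6 family that acts on nicotinic acetylcholine receptors. An unadjusted p under 0.05 was reached by 597 genes with higher and 575 with lower levels in EE, 4.09% and 3.94% of those tested and 8.03% together. Scaling by total count in place of trimmed means (TMM) turned that split into 333 higher and 961 lower. The number called changed with single libraries: it was 0 when EE replicate 3 or any of SH replicates 1 to 4 was left out, 2 when EE replicate 2 was, 4 when SH replicate 6 was (1 of them, C230014O12Rik, outside the 6) and 11 when EE replicate 5 was. Without EE replicates 1 and 4 together, 2 genes were called, Gria4 and Pdzd2, and none of the 6 was among them.

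Pcdh11x spans 620 kb of the X chromosome (chrX:120290259-120910619, mm10) and was the gene with the smallest p. Its levels were 145 to 172 CPM in EE (median 162) and 119 to 146 CPM in SH (median 123). The lowest EE library lay just under the highest SH library, and all 6 EE libraries lay above the SH median. The log2 fold change was 0.33 ± 0.05 (SE, n = 6 per group, edgeR adjusted p = 0.0316). In the separate table of female libraries, whose runs differ (a difference of sex cannot be told apart from one of run), the log2 fold change was -0.07 ± 0.05. The difference between the tables, 0.39 ± 0.08, had an edgeR interaction p of 0.0861 after adjustment over 15562 genes, among which 1 gene (0.00643%) passed the threshold, 4921539H07Rik, named here after its value was seen.

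Trps1 had 98.5 to 115 CPM in EE (median 107) and 82.5 to 96.0 CPM in SH (median 88.5), with every EE library above every SH library, as in 0.288% of all genes. Its log2 fold change of 0.26 ± 0.04 (edgeR adjusted p = 0.0316) stood beside 0.24 ± 0.06 in the female table. The difference between the tables had an adjusted interaction p of 0.963 in edgeR. Of the 6 called genes Trps1 had the highest female value, which was not called (0 of 14587 genes were called in that table by edgeR, where 661, or 4.53%, were higher at an unadjusted p under 0.05).

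Robo3 had 45.6 to 59.5 CPM in EE (median 50.3) and 32.5 to 43.3 CPM in SH (median 37.2), again without overlap of the groups. The log2 fold change was 0.45 ± 0.07 (edgeR adjusted p = 0.0316) and the female one was -0.08 ± 0.14. Robo3 is known for steering commissural axons across the midline.

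Lypd1 had 33.9 to 38.0 CPM in EE (median 37.3) and 42.4 to 49.3 CPM in SH (median 44.0), with every EE library below every SH library, as in 0.253% of all genes. The log2 fold change was -0.28 ± 0.05 (edgeR adjusted p = 0.0316), against -0.02 ± 0.07 in the female table. Lypd1 overlaps Gpr39 on the opposite strand, and the strand setting of the counting is not given in the sources used here. Gpr39 had 4.76% as many counts as Lypd1 and a log2 fold change of -0.52 with an unadjusted p of 0.0640.

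In percent, Lypd1 fell by 17.8%, Arntl rose by 16.8% and Vmn2r85 rose by 76.6%. The genes just outside the threshold were Ap3m2, a subunit of a vesicle adaptor complex, at an adjusted p of 0.0657 in edgeR, the uncharacterized Gm32828, at a log2 fold change of 0.57 and the same adjusted p, and Mapk3, which encodes the kinase ERK1, and Gria4, an AMPA receptor subunit, both at 0.0684. Across the 26 alternative analyses (25 for Vmn2r85, which had no adjusted p in DESeq2) the log2 fold changes of the 6 genes kept their sign, and each was called in 11 to 15 of them. Without EE replicates 1 and 4 their adjusted p in edgeR lay between 0.0599 and 0.0986 and Gria4 was called, at 0.24 and an adjusted p of 0.0346.

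**Figure D1:**
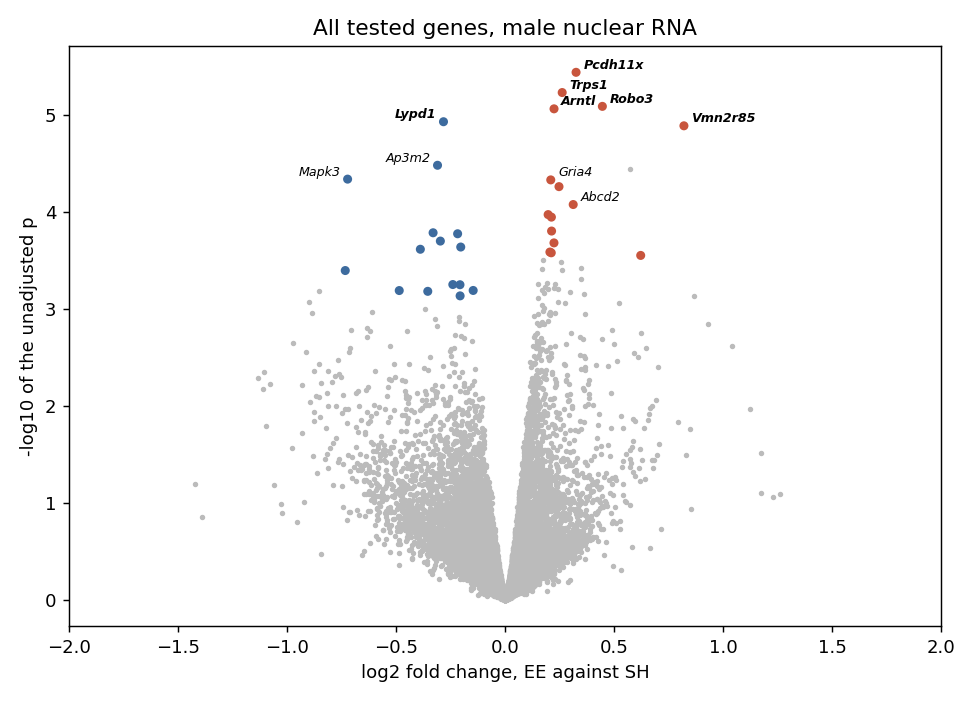
Each grey point is 1 of 14597 genes, with the log2 fold change of EE against SH on the horizontal axis and -log10 of the unadjusted p on the vertical axis. The coloured points are the 15 genes of smallest p in each direction (red higher, blue lower in EE). They were taken at an average log2 CPM of at least 1 and without Gm, Rik or unnamed symbols. The 6 called genes are in bold, 5 on the right and Lypd1 on the left.

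Vmn2r85 lies in a short run of vomeronasal receptor genes on chromosome 10, all on the minus strand: Vmn2r84 (chr10:130385316-130394241), Vmn2r85 (chr10:130417772-130429612), Vmn2r86 (chr10:130445707-130455894) and Vmn2r87 (chr10:130471332-130497379). Genes of this family encode pheromone receptors of the vomeronasal organ. Such families hold near-identical copies, so reads may have been shared between members and the values of single members are uncertain. Vmn2r85 had 10.3, 10.9, 14.3, 14.8, 17.4 and 17.8 CPM in the 6 EE libraries and 6.54 to 9.18 CPM in SH (median 8.25), and the groups did not overlap. Its log2 fold change was 0.82 ± 0.14 (edgeR adjusted p = 0.0316), the largest of the called genes.

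The 3 neighbours in the run were higher too, each at an unadjusted p under 0.05 and none called. Vmn2r84 had 3.74, 6.39, 7.46, 8.28, 10.2 and 11.2 CPM in EE and 3.68 to 5.06 CPM in SH, with a log2 fold change of 0.87 ± 0.21 (edgeR adjusted p = 0.215). EE replicate 6 was the lowest EE library for Vmn2r84, Vmn2r85, Vmn2r86 and Vmn2r87, and EE replicates 1 and 2 were the highest pair. Vmn2r86 had a log2 fold change of 0.47 ± 0.15 and Vmn2r87 of 0.30 ± 0.08, the latter with 15.3 to 20.3 CPM in EE against 13.2 to 15.2 CPM in SH and no overlap. The female values of the 4 genes lay between -0.17 and -0.02. Between Vmn2r86 and Vmn2r87, Gm18755 had a log2 fold change of 0.10 ± 0.15 with an unadjusted p of 0.528. Olfactory receptor genes within 500 kb on the side of Vmn2r84 had 0 to 6 counts over all 12 libraries and were not tested. Of 9 tested genes with a Vmn symbol, 4 were higher at an unadjusted p under 0.05, the highest share among 226 symbol families of at least 8 tested genes. The other 5, on other chromosomes, had log2 fold changes of -0.29 to 0.34.

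**Figure D2:**
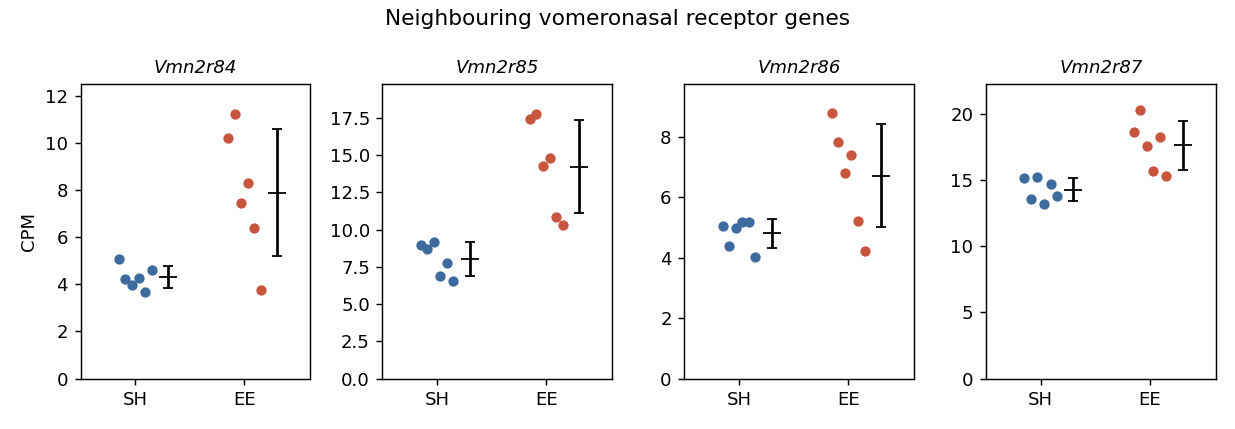
Level in CPM (vertical axes, from 0) of 4 neighbouring vomeronasal receptor genes in the SH (blue) and EE (red) libraries, with the group mean and SD in black. The SH libraries sit close together and the EE libraries spread widely, from 3.74 to 11.2 CPM for Vmn2r84.

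In the circadian clock, BMAL1 (Arntl) and CLOCK together switch on genes with E-boxes, among them their own repressors and the output factors DBP, TEF and HLF, while ROR and REV-ERB factors act on Arntl itself. The sequences below show the 2 tested clock genes whose RefSeq promoters (GRCm38.p6, 250 bases before to 50 after an annotated start) held more than 1 copy of such a motif, printed on the gene's strand. For Arntl (chr7:113207261-113207560, plus strand) the capitals mark the ROR element GTAGGTNA. For Ciart (chr3:95882179-95882478, minus strand) they mark the E-box CACGTG.
Arntl: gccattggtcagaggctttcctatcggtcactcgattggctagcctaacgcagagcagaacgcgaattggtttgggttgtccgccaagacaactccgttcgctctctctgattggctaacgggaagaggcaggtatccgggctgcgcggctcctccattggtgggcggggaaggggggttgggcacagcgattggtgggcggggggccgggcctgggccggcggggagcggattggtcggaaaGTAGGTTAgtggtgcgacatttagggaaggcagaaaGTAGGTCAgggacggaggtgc
Ciart: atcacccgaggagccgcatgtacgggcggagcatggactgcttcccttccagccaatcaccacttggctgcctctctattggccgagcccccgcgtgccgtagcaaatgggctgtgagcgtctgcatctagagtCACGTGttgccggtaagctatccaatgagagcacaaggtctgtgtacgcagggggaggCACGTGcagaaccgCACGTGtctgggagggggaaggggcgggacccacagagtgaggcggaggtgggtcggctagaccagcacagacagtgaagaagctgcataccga
Both strands were searched. The E-box was held by 7.15% of all 32851 promoters, the ROR element by 2.14% and the D-box TTATGNAA by 3.38%. Of the Arntl matches, GTAGGTTA spans the annotated start and GTAGGTCA lies after it, so neither lies whole in the 250 bases before it, a window chosen after seeing the data in which 1.79% of promoters hold the element. Among the 27 promoters found for 18 tested clock genes, 6 held an E-box, 3 a ROR element and 1 a D-box, and the promoter of Dbp held none of these letters. Per3, a repressor that was not tested, had a promoter with 2 D-boxes. A match is a description of the sequence only.

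Arntl had 136 to 150 CPM in EE (median 140) and 113 to 129 CPM in SH (median 121), and every EE library lay above every SH library. It rose by a log2 fold change of 0.22 ± 0.04 (edgeR adjusted p = 0.0316), with 0.03 ± 0.05 in the female table. Of 24 listed clock genes 22 were tested, and Arntl was the only one called. The median log2 fold change of the 22 was 0.01, beside -0.01 for all genes, with 13 of them higher (8 under total-count scaling).

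The other clock genes at an unadjusted p under 0.05 were Clock, the partner of BMAL1, on the higher side, and Dbp, Tef and Ciart on the lower side. Clock had 99.5 to 109 CPM in EE and 92.6 to 102 CPM in SH, a log2 fold change of 0.12 ± 0.04. Tef, an output factor that binds D-boxes, had 71.2 to 78.5 CPM in EE and 76.6 to 92.1 CPM in SH, or -0.15 ± 0.04. Ciart, a repressor of BMAL1 and CLOCK, had 2.91 to 4.81 CPM in EE and 3.63 to 6.96 CPM in SH, or -0.45 ± 0.17. The groups overlapped for Clock, Tef and Ciart.

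Dbp was at -0.33 ± 0.07 (edgeR adjusted p = 0.145), with 12.5 to 13.1 CPM in EE (median 12.9) and 13.1 to 17.4 CPM in SH (median 16.5). The EE libraries were tightly grouped, and all lay under the lowest SH library by a narrow margin (13.07 against 13.11 CPM). Sphk2 overlaps Dbp on the opposite strand with 35.7% as many counts, and its own log2 fold change was 0.12 with an unadjusted p of 0.371.

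In the repressor arm of the clock, Per1 showed wide spread within both groups. Per1 had 25.2 to 60.9 CPM in EE and 25.9 to 57.8 CPM in SH, and its log2 fold change was 0.10 ± 0.26. Per2 stood at 0.10 ± 0.14, Cry1 at 0.07 ± 0.10 and Cry2 at 0.03 ± 0.09. For the REV-ERB genes, Nr1d1 was at -0.11 ± 0.08 and Nr1d2 at 0.00 ± 0.05. Among activators, Npas2, a relative of Clock, was at 0.02 ± 0.04, Rora at 0.04 ± 0.05 and Rorb at 0.08 ± 0.17. The time of day of tissue collection is not given in the sources used here.

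Cholesterol is made by a long chain of enzymes from acetyl-CoA through mevalonate, squalene and lanosterol. Their genes are switched on by the transcription factor SREBP2 when sterols are low. Adult neurons are thought to take much of their cholesterol from astrocytes. Of 26 tested genes of sterol synthesis and uptake (Fdps was not tested), 11 were higher at an unadjusted p under 0.05 and 0 were lower, where 4.09% and 3.94% of all genes were. No member was called by edgeR. Of the 11, limma-voom called 0, DESeq2 called Srebf2 (adjusted p = 0.0102) and gave no adjusted p for 8, and edgeR with no filter on low counts called 4, among them Cyp51, Hmgcs1 and Msmo1. In all, 23 of 26 lay above 0, and the median log2 fold change of the 26 was 0.18 beside -0.01 for all genes. Under total-count scaling 23 of 26 lay above 0 and 8 were higher at an unadjusted p under 0.05, with a median of 0.15.

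The mean of the 26 genes, as log2 level relative to each gene's mean over the 12 libraries, was -0.01 to 0.26 in EE (median 0.06) and -0.22 to 0.05 in SH (median -0.09). The groups overlapped only through SH replicate 4, whose 0.05 was above the 3 lowest EE libraries. EE replicate 4 was the highest of all.

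**Figure D3:**
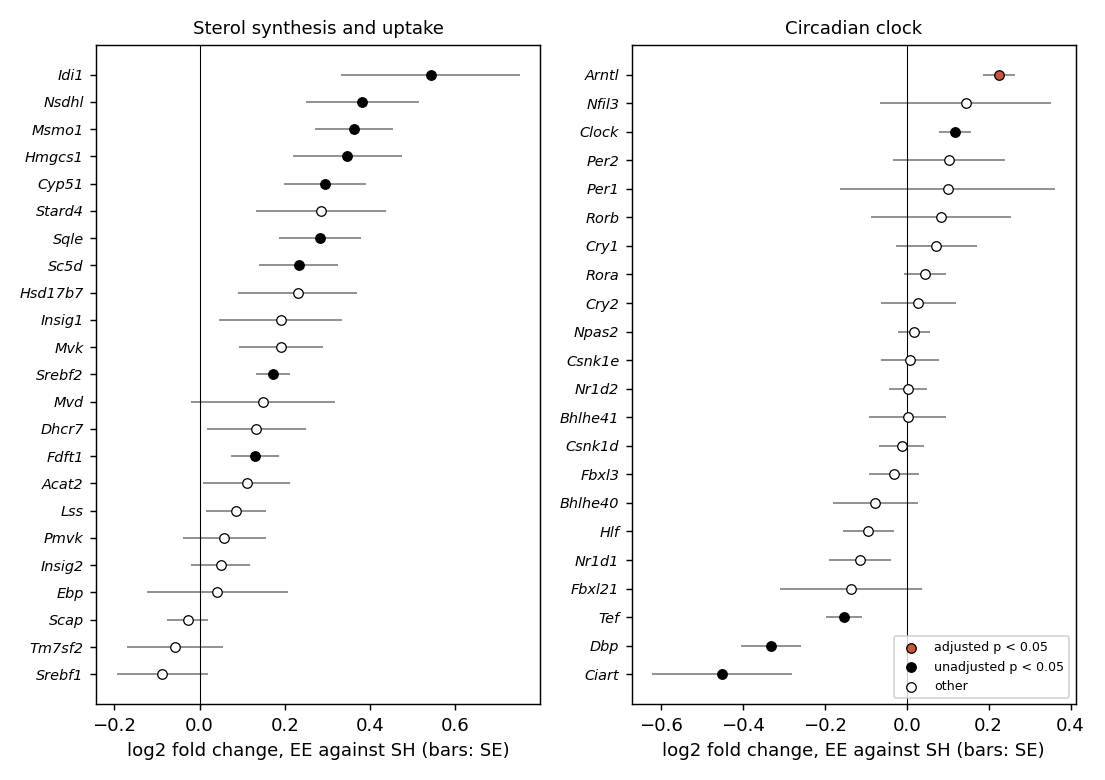
Log2 fold change of EE against SH (horizontal axis) with its SE (bars) for 23 tested genes of sterol synthesis and uptake (left) and of the circadian clock (right). Filled black points have an unadjusted p under 0.05 and the red point, Arntl, is called. On the left 20 of 23 points lie above 0, on the right 13 of 22.

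Srebf2, which encodes SREBP2, had 89.3 to 100 CPM in EE (median 91.7) and 81.1 to 87.1 CPM in SH (median 81.8). It was the only gene of the list whose groups did not overlap, something seen for 0.541% of all genes, and its log2 fold change was 0.17 ± 0.04 (edgeR adjusted p = 0.183). Srebf1, its relative tied more to fatty acid synthesis, was at -0.09 ± 0.11, and Scap, the escort protein of both, at -0.03 ± 0.05.

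Along the pathway, Hmgcs1, which makes HMG-CoA, was at 0.35 ± 0.13. Idi1, an isomerase after mevalonate, was at 0.54 ± 0.21. Of the squalene steps, Fdft1 was at 0.13 ± 0.06 and Sqle at 0.28 ± 0.10, and Lss, which closes the rings, was at 0.09 ± 0.07. The enzymes that trim lanosterol were Cyp51 at 0.29 ± 0.10, Msmo1 at 0.36 ± 0.09 and Nsdhl at 0.38 ± 0.13. Of the last steps, Sc5d was at 0.23 ± 0.09 and Dhcr7 at 0.13 ± 0.12. The feedback proteins Insig1 and Insig2 were at 0.19 ± 0.14 and 0.05 ± 0.07.

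The RefSeq promoter of Hmgcs1 (chr13:119690101-119690400, GRCm38.p6, plus strand) is shown because it was the only 1 of 28 promoters found for 20 tested sterol genes to hold the sterol element searched, TCACNCCAC on either strand, in capitals. Of all 32851 promoters 1.24% hold it.
Hmgcs1: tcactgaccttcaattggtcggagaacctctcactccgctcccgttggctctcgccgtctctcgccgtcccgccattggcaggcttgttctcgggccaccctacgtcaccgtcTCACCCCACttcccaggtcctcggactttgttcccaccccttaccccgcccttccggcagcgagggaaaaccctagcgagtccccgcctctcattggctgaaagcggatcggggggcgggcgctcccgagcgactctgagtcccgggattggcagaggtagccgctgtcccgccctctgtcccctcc
Hmgcs1 itself had 19.3 to 31.1 CPM in EE (median 23.3) and 16.005 to 26.5 CPM in SH (median 17.9), with overlap through SH replicate 4.

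In females 23 of 26 sterol genes also lay above 0, 4 of them at an unadjusted p under 0.05, with a median of 0.16 beside 0.00 for all genes. The interaction test gave an unadjusted p under 0.05 for 0 of the 26, which does not show that the sexes act alike. The astrocyte and oligodendrocyte markers, of which 9 of 10 and 10 of 10 were positive in males, had a female median of -0.28 and -0.09. With the mean centred log2 level of the glial and vascular markers as a covariate the male count remained 11 with a median of 0.17. With the number of genes detected as a covariate it was 2, with a median of 0.06. With 1 surrogate variable it was 7, with a median of 0.21. Without EE replicates 1 and 4 it was 6, with a median of 0.12. Leaving out single libraries gave 8 to 12 and medians of 0.14 to 0.21.

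Adhesion and guidance genes, through which neurons choose and hold partners, differed by list. Positive log2 fold changes were held by 19 of 23 contactin, Caspr and NCAM genes, 12 of 17 cadherins, 8 of 11 teneurins, latrophilins and FLRTs, 7 of 10 protocadherins, 12 of 18 Slit, Robo and netrin genes, 11 of 17 Eph and ephrin genes, 12 of 23 synaptic organizers and 12 of 28 semaphorins, plexins and neuropilins, beside 47.9% of all genes. Under total-count scaling these were 18, 10, 6, 5, 7, 9, 12 and 10. Among Slit, Robo and netrin guidance genes 5 of 18 tested were higher at an unadjusted p under 0.05 and 0 lower, with a median of 0.02 (4 and 1 with a median of -0.01 under total-count scaling). Besides Robo3 these were Slit2, a ligand of Robo receptors, Ntng1, a netrin relative tethered to the axon membrane, and the netrin receptors Dcc and Unc5d. Slit2 had 245 to 314 CPM in EE (median 274) and 226 to 259 CPM in SH (median 242), or 0.20 ± 0.06, with 0.34 ± 0.08 in the female table. Ntng1 had 175 to 203 CPM in EE and 138 to 182 CPM in SH, or 0.21 ± 0.05, with 0.28 ± 0.10 in females. The groups overlapped for both.

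Of the 10 tested protocadherins outside the gene clusters, 4 were higher at an unadjusted p under 0.05 and 0 lower. Besides Pcdh11x these were Pcdh7 at 0.20 ± 0.05, Pcdh9 at 0.15 ± 0.05 and Pcdh20 at 0.36 ± 0.14. None of 58 clustered protocadherin IDs was tested. Of the contactin, Caspr and NCAM genes 5 were higher at an unadjusted p under 0.05, with a list median of 0.06. They were Cntnap5c at 0.24 ± 0.06, Ncam2 at 0.14 ± 0.05, Cntn6 at 0.15 ± 0.05, Cntn2 at 0.16 ± 0.06 and Cntnap5a at 0.15 ± 0.06. Of classical and type II cadherins 2 were higher at an unadjusted p under 0.05 and 0 lower. These were Cdh20 at 0.21 ± 0.07 and Cdh8 at 0.11 ± 0.04. Of all genes 4.09% were higher and 3.94% lower at that threshold. Neurexins, neuroligins and other synaptic organizers had 0 of 23 genes at an unadjusted p under 0.05.

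Eph receptors, which read ephrins on neighbouring cells, went both ways. Epha6 had 528 to 588 CPM in EE (median 550) and 441 to 512 CPM in SH (median 489), with no overlap and a log2 fold change of 0.20 ± 0.04 (edgeR adjusted p = 0.118). Epha8 had 8.72 to 10.9 CPM in EE and 11.5 to 15.01 CPM in SH, also with no overlap, or -0.39 ± 0.09. Epha3, Epha5 and Epha10 were at 0.20 ± 0.06, 0.11 ± 0.04 and 0.15 ± 0.05. Semaphorins, plexins and neuropilins had 2 higher and 3 lower of 28 at an unadjusted p under 0.05. That was 7.14% and 10.7%, beside 4.09% and 3.94% of all genes. Among them were Sema3e at 0.24 ± 0.11 and Plxna1 at -0.15 ± 0.05.

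Span, the annotated length of a gene, moved with direction over the whole table, and the adhesion and guidance lists had median spans above the 29.6 kb of all genes tested. These ran from 43.8 kb for Eph and ephrin genes to 195 kb for cadherins and 410 kb for contactin, Caspr and NCAM genes. Single members were shorter, among them Robo3 at 17.6 kb and Epha8 at 27.4 kb. Of genes over 300 kb, 67.3% had a positive log2 fold change and 18.8% were higher at an unadjusted p under 0.05, with 3.18% lower. Of genes under 10 kb, 36.1% were positive and 1.18% and 4.95% were higher and lower. The share of positive genes was larger in each longer class of the 5. Sterol genes are short, with a median span of 18.8 kb.

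Level moved with direction as well: of genes in the top sixth by level 68.9% were positive, and of those in the lowest sixth 35.6%. Within the top sixth, 78.3% of 442 genes over 300 kb were positive and 39.3% of 28 genes under 10 kb. Under total-count scaling the share positive was 53.6% over 300 kb and 30.0% under 10 kb, where the median of all genes was -0.04. Without EE replicates 1 and 4 it was 72.2% and 36.7%. Per library, the mean log2 level of genes over 300 kb minus that of genes under 10 kb was -0.16 to 0.15 in EE (median 0.04) and -0.12 to 0.07 in SH (median -0.05). EE replicate 4 was the lowest of all 12 libraries and the groups overlapped, so the shift is not seen in every EE library. The part of span and level in the results for long genes was not tested.

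**Figure D4:**
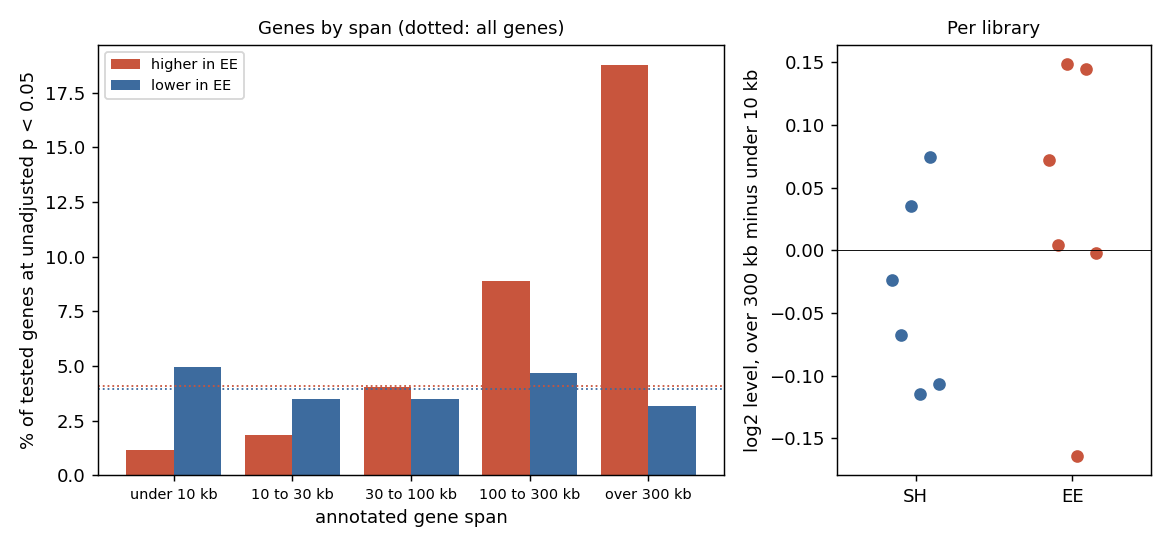
Left, the share of tested genes (%) higher (red) or lower (blue) in EE at an unadjusted p under 0.05 by annotated span, with dotted lines at the shares of all genes; the red bars grow from 1.18% under 10 kb to 18.8% over 300 kb. Right, the mean log2 level of genes over 300 kb minus that of genes under 10 kb in each SH (blue) and EE (red) library, where the groups overlap.

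Receptors and channels of excitability stood on both sides. Gria4 had 897 to 1028 CPM in EE and 800 to 916 CPM in SH, with a log2 fold change of 0.21 ± 0.04, while the AMPA subunit Gria1 was at -0.10 ± 0.05, the kainate subunit Grik3 at -0.12 ± 0.05 and the AMPA receptor auxiliary protein Shisa9 at -0.12 ± 0.04. GABA receptor genes were positive in 12 of 14 (6 under total-count scaling), and only Gabrg1, at 0.37 ± 0.13, had an unadjusted p under 0.05. Chrm3, a muscarinic acetylcholine receptor, had 1034 to 1190 CPM in EE and 868 to 1068 CPM in SH, or 0.21 ± 0.05 (edgeR adjusted p = 0.145). Among Ly6 modulators of acetylcholine receptors, Lypd6 was at 0.27 ± 0.10 and Ly6h at -0.20 ± 0.08.

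Potassium channel genes had 7 higher and 8 lower of 66 at an unadjusted p under 0.05. That was 10.6% and 12.1%, beside 4.09% and 3.94% of all genes. Kcnc2, a fast delayed rectifier of interneurons, had 302 to 366 CPM in EE and 258 to 295 CPM in SH, with no overlap and a log2 fold change of 0.21 ± 0.05, and Kcnd2 was at 0.14 ± 0.05. Kcnj11, a subunit of the ATP-sensitive channel, was at -0.37 ± 0.12 and the calcium-activated channel gene Kcnn3 at -0.19 ± 0.06. Scn1a, a sodium channel, had 274 to 351 CPM in EE and 259 to 288 CPM in SH, or 0.21 ± 0.05. Cacna1h, a T-type calcium channel, had 55.3 to 60.5 CPM in EE and 62.5 to 76.1 CPM in SH without overlap, or -0.22 ± 0.05, and its relative Cacna1g was at -0.11 ± 0.05. The calcium channel subunits Cacna2d1 and Cacna2d3 were at 0.13 ± 0.05 and 0.16 ± 0.07. HCN, TRP and cyclic nucleotide channel genes had 1 higher and 5 lower of 25 at an unadjusted p under 0.05. Among them were Trpc6 at 0.18 ± 0.06 and Hcn4 at -0.52 ± 0.17.

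In signalling, the ERK cascade held Mapk3 at 2.27 to 3.34 CPM in EE (median 2.72) and 3.64 to 5.41 CPM in SH (median 4.62). The groups did not overlap, and the log2 fold change was -0.72 ± 0.14 (edgeR adjusted p = 0.0684). Its upstream kinase Map2k1 was at -0.10 ± 0.05, its feedback inhibitor Spred1 at 0.29 ± 0.11 and its substrate kinase Rps6ka2 at -0.21 ± 0.05. Of 58 tested genes of the MAPK cascade and its feedback, 4 were higher and 3 lower at an unadjusted p under 0.05. That was 6.90% and 5.17%, beside 4.09% and 3.94% of all genes. Besides Spred1, Braf at 0.08 ± 0.04, Mapk14 at 0.10 ± 0.04 and Map3k2 at 0.15 ± 0.06 were higher. Dusp18 was lower, at -0.30 ± 0.15. Under total-count scaling the counts were 1 and 4. TGF-beta, BMP and activin genes had a median of 0.00. At an unadjusted p under 0.05, 7 of 38 were higher and 1 lower (3 and 2 under total-count scaling). The higher ones included the activin subunit Inhba at 0.37 ± 0.12 and the receptors Tgfbr2 at 0.43 ± 0.16, Acvr1 at 0.11 ± 0.04 and Acvr1c at 0.21 ± 0.08, and the lower one was Acvr2b at -0.22 ± 0.09. Wnt genes had 1 higher and 4 lower of 40 at an unadjusted p under 0.05. The lower ones included the coreceptor Lrp5 at -0.53 ± 0.15, Ror2 at -0.38 ± 0.13 and Lgr5 at -0.34 ± 0.12. Neuropeptide receptors had 0 higher and 3 lower of 32 at an unadjusted p under 0.05. These were Tacr1 at -0.46 ± 0.16, Vipr2 at -1.10 ± 0.41 and Cckbr at -0.14 ± 0.05.

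Among transcription factors, nuclear receptors had 3 higher and 4 lower of 36 at an unadjusted p under 0.05. Nr3c1, the glucocorticoid receptor gene, had 113 to 122 CPM in EE and 98.9 to 115 CPM in SH, or 0.17 ± 0.04 (edgeR adjusted p = 0.196), the smallest p of the list. Its female log2 fold change was -0.19 ± 0.06, and the difference between the tables had an adjusted interaction p of 0.0861 in edgeR. Nr2f1 had 12.5 to 14.2 CPM in EE and 14.6 to 18.4 CPM in SH, with no overlap and a log2 fold change of -0.23 ± 0.07, and the thyroid hormone receptor gene Thra was at -0.17 ± 0.07. The cortical factors Neurod2, Emx1 and Lmo4 were at -0.25 ± 0.08, -0.21 ± 0.08 and -0.14 ± 0.05, while Arnt2, Tcf12 and Mef2a were at 0.15 ± 0.04, 0.12 ± 0.04 and 0.11 ± 0.04. Of 295 tested Zfp genes 9 were higher and 9 lower at an unadjusted p under 0.05. That was 3.05% each way, beside 4.09% and 3.94% of all genes. Of nuclear long noncoding RNAs, Miat had 350 to 385 CPM in EE and 400 to 434 CPM in SH without overlap, or -0.15 ± 0.04, and the imprinted Meg3 was at -0.11 ± 0.04.

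In the lists that follow, genes counted as higher or lower had an unadjusted p under 0.05, as 4.09% and 3.94% of all genes did. Autophagy genes had 0 higher and 5 lower of 34, or 14.7% lower. Among them were Gabarap at -0.45 ± 0.17, Becn1 at -0.15 ± 0.07 and Atg13 at -0.12 ± 0.05. Glycolysis had 1 lower of 21, the neuronal glucose transporter Slc2a3 at -0.11 ± 0.05, and 5 of 21 positive. RNA polymerase II and Mediator genes had 9 of 41 positive and 1 lower, Polr2e at -0.29 ± 0.11. A positive log2 fold change was held by 47.9% of all genes. Median spans were 17.7 kb for glycolysis and 13.7 kb for RNA polymerase II and Mediator genes, beside 29.6 kb for all genes tested. The part of span in these shares was not tested. Proteasome genes had 1 lower of 38, Psmc3, and translation initiation factors 1 lower of 44, Eif3k. Splicing factors had 1 higher and 3 lower of 89, the former being Nova1 at 0.10 ± 0.05. Aminoacyl-tRNA synthetases, which load transfer RNAs, had 3 higher and 1 lower of 37 (2 and 3 under total-count scaling): Dars at 0.27 ± 0.08, Wars2 at 0.18 ± 0.06 and Rars2 at 0.11 ± 0.05, and Wars at -0.14 ± 0.06. Of 8 tested genes of the COG complex, which tethers Golgi vesicles, 7 were positive and 3 were higher at an unadjusted p under 0.05. These 3 were Cog6 at 0.14 ± 0.05, Cog5 at 0.10 ± 0.04 and Cog3 at 0.12 ± 0.06.

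The 30 genes of smallest p, 15 in each direction, were taken at an average log2 CPM of at least 1 and without Gm, Rik or unnamed symbols. Of the 30, 20 had groups that did not overlap, a description of how they were chosen. Genes among them not yet described include, on the higher side, Fggy, a carbohydrate kinase, with 113 to 131 CPM in EE and 94.0 to 113 CPM in SH. Abcd2, a peroxisomal transporter of fatty acids, had 21.8 to 27.5 CPM in EE and 18.3 to 21.8 CPM in SH, or 0.31 ± 0.07. Acsl4, which activates polyunsaturated fatty acids, was at 0.21 ± 0.05 and Efemp1, a matrix protein, at 0.62 ± 0.14. On the lower side, Ypel3 was at -0.30 ± 0.07, the Ras regulator Rasal1 at -0.20 ± 0.05, the metalloprotease Mmp24 at -0.21 ± 0.05 and Arhgap28 at -0.73 ± 0.18. Of the 30, 14 had the same sign in the female table, and 20 had an unadjusted interaction p under 0.05, beside 8.98% of all genes, while 0 passed adjustment in edgeR. The 30 were chosen for their male p, which favours a difference from the female table, so nothing is read from that count. Emid1, a matrix protein, was at -0.49 ± 0.12 in males and 0.45 ± 0.13 in females, with an adjusted interaction p of 0.0861.

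Open chromatin at the starts of these 30 genes was measured by ATAC-seq in 6 EE and 7 SH male libraries of 27.7 to 73.8 M counts. Within 1 kb of the start, 29 of 30 genes had a region, 38 regions in all. None was called by edgeR or by DESeq2, which gave no adjusted p for 2 of them, as in the whole table (0 of 192834 regions, or 0%), and 1 of 38 had an unadjusted p under 0.05 beside 4.54% of all regions. That region lay at the start of Emid1, where the log2 fold change was -0.58 ± 0.23 with an unadjusted p of 0.0149. The sign of the region matched that of the RNA in 21 of 38. At the start of Pcdh11x the log2 fold change was -0.08 ± 0.07 and at that of Lypd1 it was -0.09 ± 0.07.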

How the data were processed

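The male RNA table held raw read counts per Ensembl gene for 6 EE and 6 SH libraries, deposited without normalization. The male ATAC table held raw counts per region, as the authors deposited them. Per the submitters' processing notes, the tools were STAR 2.5.4, SAMtools 1.3.1, bedtools, DESeq2 1.16.1, MACS2 2.1.1, DiffBind 3.2.2 and edgeR, and the build mm10. The counter and its strand setting: not given in the sources used here. That table's header was 1 name short, so its 12 names were read as columns 2 to 13 in order. Gene spans and coordinates came from the annotation columns of the female RNA table, and 53274 of 53379 IDs matched a symbol.

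Counts were tested in edgeR 4.0.16 (R 4.3.3) with TMM scaling, filterByExpr by group and the quasi-likelihood F test (robust) for housing, with Benjamini-Hochberg adjustment over all genes tested. A gene was called at an adjusted p under 0.05. SE is the absolute log2 fold change over the root of F, and a positive value means higher in EE. CPM are scaled by TMM. At 10.4 to 14.6 M counts per library, the precision of a level rests on its counts, and low genes vary more. The interaction was fitted over male and female libraries. The fit was run on simulated counts drawn independently for each gene and library, which cannot show how calls behave when single libraries stand apart. No result here rests on that run.

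Genes named were all called genes; the 15 of smallest p in each direction and up to 8 of largest log2 fold change among those at an unadjusted p under 0.05, both at an average log2 CPM of at least 1 and without Gm, Rik or unnamed symbols; up to 4 members of each of 58 lists (2 of highest level where none reached an unadjusted p under 0.05); up to 3 members of the 6 symbol families with the largest share in 1 direction; and all tested clock genes. Members of sterol synthesis, MAPK, Vmn and marker lists beyond these, and genes called only under an alternative, were named after their values were seen. The members and lists were chosen with earlier results of these data known. Lists were described by counts and medians, with no test, and a few of their members are counted but not reported here singly.

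Replicate numbers of the labels were not used to pair libraries in the main fit. Same-numbered EE and SH libraries had correlated deviations of -0.03 to 0.22 over 6 pairs, above 0.1 in 2. Over all 36 EE and SH pairs these were -0.21 to 0.22, above 0.1 in 6. These values do not settle whether the numbers mark pairs. No 2 libraries of the same housing group were duplicates, and pairs of an EE and an SH library were not checked. Alternatives were DESeq2 1.42.0, limma-voom (limma 3.58.1), other scalings and filters, covariates, a surrogate variable (sva 3.50.0), a replicate block and leaving out each library.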

Additional observations from a re-analysis of the deposited data

Results flagged for a closer look

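Of 112 groups of 6 libraries examined (library measures and named genes), 9 held a library far from the other 5. Chance flags about 1 in 20 groups. Among library measures, EE replicate 1 had a summed level of neuronal markers of 7238 CPM, with the next EE library at 6996. SH replicate 6 had 11.9 CPM of oligodendrocyte precursor markers, with the next SH library at 7.97.

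Among the genes of smallest p, SH replicate 3 stood apart for Epha8 at 15.01 CPM (next 12.7) and for Cacna1h at 76.1 CPM (next 67.0). SH replicate 1 was the lowest SH library for Dbp at 13.1 CPM, with the next at 15.98. EE replicate 4 had 15.9 CPM of Ypel3 (next 14.0), and EE replicate 3 had 366 CPM of Kcnc2 (next 323).

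Among sterol genes, EE replicate 6 had 3.83 CPM of Nsdhl, with the next EE library at 5.05. SH replicate 4 had 26.5 CPM of Hmgcs1, with the next SH library at 18.8.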

How the results depend on the processing

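The number of genes called was 6 and depended on the method: 49 with DESeq2 (43 higher, 6 lower, 5 shared), which gave no adjusted p for 10471 of 14597 genes, Vmn2r85 among them, 0 with limma-voom (1261 at an unadjusted p under 0.05; adjusted p of the 6 genes 0.0527), 136 with no filter on low counts (104 higher, 32 lower, 36188 genes tested), 0 with the number of genes detected as a covariate (815 at an unadjusted p under 0.05), and 1 with a surrogate variable (Maml3). It was 6 or 7 with DESeq2's size factors, total-count scaling, a filter at a mean of 1 CPM or the non-robust fit, and 8 with the glial and vascular covariate. Leaving out single libraries gave 0 to 11. Of alternatives chosen after seeing the data, a striatal marker covariate gave 0 (833 at an unadjusted p under 0.05) and leaving out EE replicates 1 and 4 gave 2. The cause of these differences was not tested.

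Whether the label numbers mark pairs of libraries is not known. With the replicate block 3 genes were called (Trps1, Vmn2r85 and Fggy), and with the header's numbers as a block, chosen after seeing the data, 4 were (Pcdh11x, Vmn2r85, Trhde and Skap1). Correlated deviations of 5 header pairs were -0.12 to 0.11, above 0.1 in 2.

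Interactions called among the 30 genes numbered 0, but 7 with DESeq2 (no adjusted p for 11 of the 30), 2 with the replicate block, and 0 to 2 when single libraries were left out (2 without SH replicate 5, Pcdh11x and Emid1). ATAC regions called at their starts were 0 under every alternative run. Of 1123 values with an adjusted p of 44 single genes under alternatives, 997 kept their direction and side of the threshold, 78 lost the call, 48 gained one and 0 changed sign. All the losses fell on the 6 called genes, each of which kept the call in 11 to 15 of 26 alternatives (25 for Vmn2r85). Most values that kept their side belonged to genes not called in the main fit. Genes of few counts, such as Vmn2r84 and Mapk3, are limited by depth.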

Other observations

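Some genes of large log2 fold change had few counts and wide groups. Cenps, a protein of the centromere and of DNA repair, had 0.747 to 2.08 CPM in EE and 1.35 to 5.75 CPM in SH, a log2 fold change of -1.11 ± 0.35. Dnah11, an axonemal dynein heavy chain, was at -0.88 ± 0.27 in males and 0.91 ± 0.20 in females, with an adjusted interaction p of 0.0504 in edgeR. Rgcc, a regulator of the cell cycle, had 2.24 to 3.296 CPM in EE and 1.26 to 2.06 CPM in SH, without overlap, or 0.62 ± 0.18. Crybg1 had 0.733 to 2.17 CPM in EE and 2.33 to 2.83 CPM in SH, also without overlap, or -0.72 ± 0.21.

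Direction differed between chromosomes. Of tested genes, 40.7% on chromosome 7 and 41.2% on chromosome 11 had a positive log2 fold change, against 59.8% on chromosome 18 and 55.5% on the X chromosome, where all genes gave 47.9%. Median span was 21.6, 22.03, 44.5 and 33.5 kb on these 4 chromosomes in that order, and its part was not tested.

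Heparan sulfate is a sugar chain read by growth factors and guidance receptors. Of 10 tested genes with an Hs symbol, 3 for enzymes that place sulfate on it were higher at an unadjusted p under 0.05. These were Hs3st5 at 0.18 ± 0.05, Hs2st1 at 0.10 ± 0.04 and Hs6st3 at 0.16 ± 0.06. All 3 span more than 100 kb. Of 8 anoctamin genes, Ano3 and Ano4 were at 0.13 ± 0.04 and 0.12 ± 0.05 and Ano2 at -0.37 ± 0.17. Of 8 carbonic anhydrase genes, Car11 and Car4 were at -0.17 ± 0.06 and -0.29 ± 0.13.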
